A study of Sus scrofa with 32 samples.

Results

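The genes described here encode the basement membrane of muscle, the integrins that bind it, and the enzymes that cut, inhibit or crosslink the extracellular matrix. They were every gene ID of the count table whose symbol began with LAMA, LAMB, LAMC, ITGA, ITGB, MMP, TIMP, ADAMTS, LOX, P4HA, PLOD or COL4A, together with NID1, NID2, HSPG2 and AGRN. This rule found 90 members among 25322 gene IDs, of which 11804 carried a symbol. Expression had been measured by RNA-seq of total RNA depleted of ribosomal RNA in 32 libraries from 16 gilts, all labelled as 180 days old, with 8 pigs of the Pulawska breed (PUL) and 8 of the Polish Landrace breed (PL). Each pig gave a library of the longissimus dorsi (LD, loin) and of the semimembranosus (S, ham), so the 4 groups were PUL LD, PL LD, PUL S and PL S. No pig was treated, and per the study's methods the gilts were not kin, had been bred on several farms and grew up on 1 regime at a single station. The labels give PUL muscle a high and PL muscle a low shear force, whereas the study's text describes PL pork as the less tender, and breed and shear class cannot be told apart in any comparison. Though the labels give 1 age, the study's methods set slaughter by body weight. Its text reports a faster daily gain in PL and relates expression to age at slaughter. Age may thus have differed between the breeds, and it cannot be told apart from breed here.

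The basement membrane is a thin sheet around every muscle fibre. Laminins, trimers of an alpha, a beta and a gamma chain, and collagen IV each form a network in it, and nidogens and perlecan link both networks. Integrins, dimers of an alpha and a beta subunit, anchor the cell to this sheet and to the collagen and fibronectin outside it. Matrix metalloproteinases (MMP) and ADAMTS proteases cut matrix proteins, TIMP proteins inhibit MMPs, prolyl and lysyl hydroxylases (P4HA, PLOD) modify collagen chains inside the cell, and lysyl oxidases (LOX, LOXL) crosslink collagen and elastin outside it.

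The libraries held between 8821259 and 24761846 counts. Levels are given as CPM (counts scaled by the library's total count) on a common scale over the 32 libraries. Since transcript lengths were not used, levels are set against each other between libraries, and no order of genes by level is read from them. All libraries expressed the skeletal muscle markers ACTA1 and NEB, which summed to between 31930 and 157921 CPM. In this bulk tissue, fewer cells of a type and less RNA per cell cannot be told apart. The S library of PL pig 8 stood apart, with 261 of 11563 genes (2.26%) above 2 times the second highest library, against 101 genes in the next such library, S of PUL pig 5. The summed level of 9 of 12 hepatocyte markers was 8.88 to 33.7 CPM in the PL libraries. It lay above that range in 8 of the 10 libraries of PUL pigs 1 to 5, up to 1429 CPM in S of pig 5, all but S of pig 3 (25.1) and LD of pig 1 (30.3), and also in S of PUL pig 17 (65.3).

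Of the 90 members, 65 passed the low-count filter of at least 1 comparison. The remaining 25 did not exceed 2.20 CPM in any library, and LOXHD1 and MMP20 had no count at all. The 65 comprised 6 of 8 laminin chains, all 4 of NID1, NID2, HSPG2 and AGRN, 2 of 5 collagen IV chains, 12 of 14 integrin alpha and 6 of 7 integrin beta subunits, 8 of 17 MMPs, TIMP1, 12 of 16 ADAMTS and 2 of 4 ADAMTSL genes, 3 of 4 lysyl oxidases, and all 3 members each of P4HA and PLOD. They also included 3 symbols that begin with ITGB but are not subunits, namely ITGBL1 and the integrin-binding proteins ITGB1BP1 and ITGB1BP2. Another 21 symbols of these families, COL4A1, LAMA2 and ITGA7 among them, matched no gene ID and were not analysed here.

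**Figure D1:**
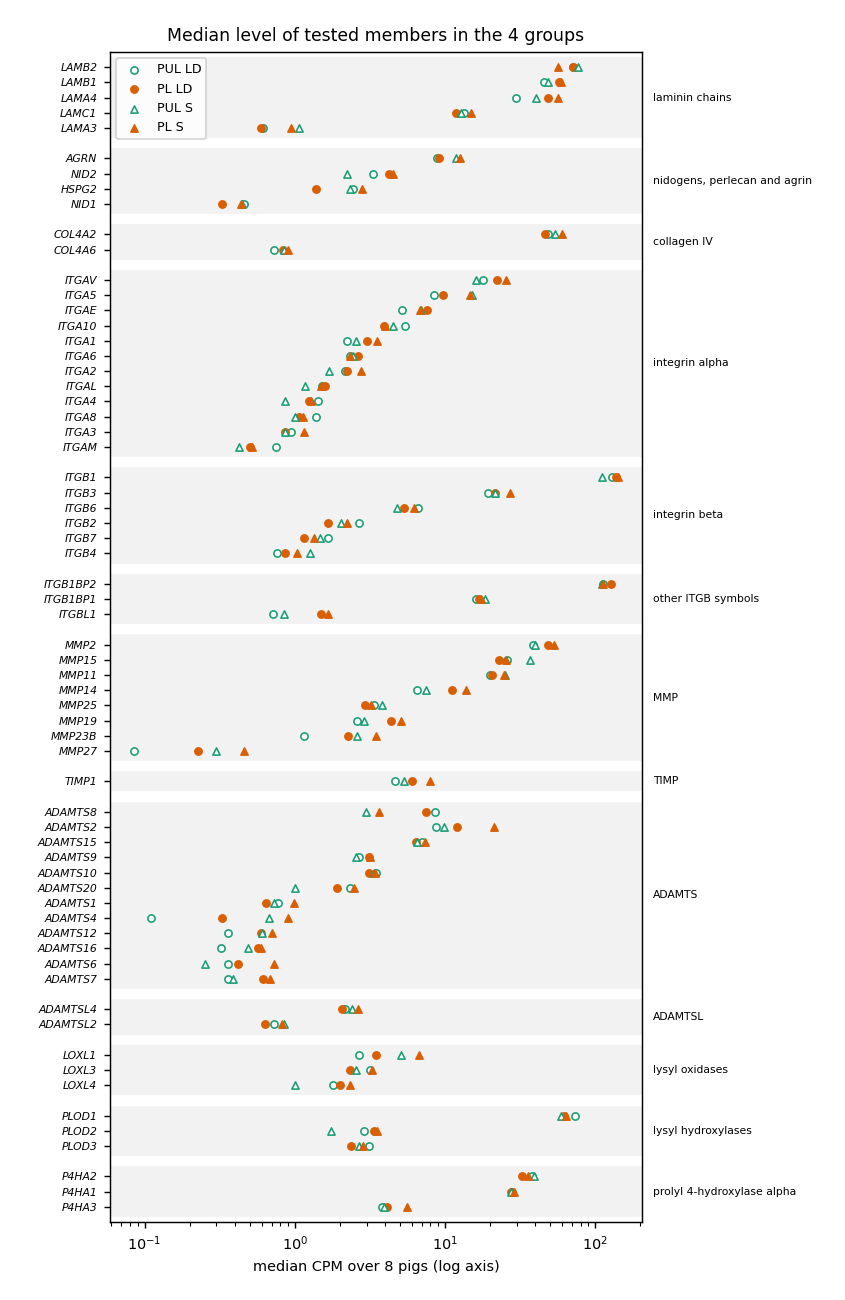
Median CPM over 8 pigs (log axis) of the tested members in PUL LD, PL LD, PUL S and PL S, grouped by class. The 4 symbols of a gene lie close together for most members, such as ITGB1 with medians of 111 to 142 CPM, and spread for ADAMTS8 with medians of 2.96 to 8.63 CPM.

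Among the laminin chains, LAMB2, the beta chain known from the neuromuscular junction, had medians of 71.2 CPM in PUL LD, 71.2 in PL LD, 76.2 in PUL S and 56.5 in PL S. LAMB1, the more widespread beta chain, had medians of 45.3, 57.1, 48.8 and 59.3 CPM in the same order, and LAMC1, the gamma chain of most laminins, 13.3, 11.8, 12.8 and 14.9 CPM. LAMA4, the alpha chain typical of blood vessel walls, was the laminin chain with the largest breed difference by p and is described with the breed comparison. COL4A2, a chain of the widespread collagen IV trimer, had medians of 48.4, 46.6, 54.1 and 60.2 CPM. COL4A3, COL4A4 and COL4A5, chains of more restricted trimers, stayed at or under 0.267 CPM in every library. AGRN (agrin, the proteoglycan that clusters acetylcholine receptors) had medians of 8.90, 9.13, 11.8 and 12.6 CPM.

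ITGB1, the beta subunit shared by most integrins of muscle, was among the most even members. Its median was 130 CPM in PUL LD (93.1 to 208), 137 in PL LD (91.9 to 181), 111 in PUL S (84.6 to 152) and 142 in PL S (114 to 202). The coefficient of variation between pigs, averaged over the 4 groups, was 22.6% for ITGB1, 19.5% for ITGB1BP1, 24.3% for ITGB1BP2, known as melusin, and 25.1% for P4HA2. The same quantity had a median of 46.1% over the 65 tested members and 34.9% over all 11563 genes. ITGAV, an alpha subunit of receptors for vitronectin and fibronectin, had medians of 18, 22, 16.1 and 25.5 CPM in PUL LD, PL LD, PUL S and PL S.

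The enzymes that build and cut the matrix had overlapping ranges in the 4 groups, and their medians are given here in the order PUL LD, PL LD, PUL S and PL S. MMP2, the gelatinase made by fibroblasts, had medians of 38.7, 48.7, 39.6 and 52.8 CPM, and its breed difference was 0.45 (SE 0.31) in LD and 0.47 (SE 0.32) in S on the log2 scale. MMP15, a membrane-bound protease, had medians of 26.0, 22.9, 36.6 and 25.6 CPM, and MMP11, a protease of stromal cells, 20, 20.5, 24.9 and 24.6 CPM. TIMP1, the only inhibitor of MMPs among the members, had medians of 4.66, 6.01, 5.32 and 7.95 CPM and its highest value, 29.0 CPM, in LD of PL pig 14. ADAMTS2, the protease that trims the amino end of fibrillar procollagen, had medians of 8.68, 11.9, 9.90 and 21.1 CPM and a breed difference of 0.73 (SE 0.42) in LD and 0.81 (SE 0.40) in S, neither of which passed the test. Of the collagen-modifying enzymes, PLOD1 had medians of 72.8, 62.3, 59.5 and 63.8 CPM, P4HA2 38.0, 32.4, 38.8 and 35.9 CPM, and P4HA1 27.8, 27.4, 27.5 and 28.7 CPM. LOXL1, the oxidase that crosslinks elastin, had medians of 2.69, 3.48, 5.07 and 6.70 CPM, and its muscle difference was 0.79 (SE 0.38) in PUL and 0.68 (SE 0.52) in PL.

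The members with the highest variation were ADAMTS8 (148%), ADAMTS4 (129%), MMP27 (121%), ADAMTS1 (116%) and NID1 (91.1%). ADAMTS4, MMP27, ADAMTS1 and NID1 had group medians under 1 CPM, with single libraries up to 8.05, 1.88, 10.7 and 1.91 CPM. ADAMTS8 ranged from 0.107 to 139 CPM over the 32 libraries. It stood at 139 CPM in LD of PUL pig 1, 95.1 in LD of PUL pig 3, 111 in LD of PL pig 8 and 104 in S of PL pig 14. In the other 28 libraries the level lay between 0.107 and 26.7 CPM. By the pig numbers of the labels, on which the pairing rests alone, the high level was not shared between muscles of a pig. PUL pig 1 had 1.04 CPM in S, PUL pig 3 had 3.21, PL pig 8 had 17.5, and PL pig 14 had 1.88 in LD. ADAMTS15, the neighbour of ADAMTS8 in the RefSeq annotation, stayed between 3.87 and 12.8 CPM.

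The question of the study was how the breeds differ within a muscle. In LD no member passed the test (adjusted p at or under 0.05 and a fold change of at least 1.3), and neither did any of the 10792 genes tested (0%). DESeq2 called 19 of these genes (0.176%) and no member. At an unadjusted p under 0.05 there were 3 of 57 tested members, a share of 5.26% against 7.15% of all genes. Of the 57, 31 (54.4%) had the higher estimate in PL, against 50.8% of all genes, and the median log2 fold change (PL over PUL) was 0.04 against 0.01 over all genes.

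The 3 members were ITGA10, LAMA4 and ITGBL1. ITGA10, an alpha subunit of a collagen receptor, ranged from 3.83 to 7.67 CPM in PUL LD with a median of 5.39, and from 2.63 to 5.91 in PL LD with a median of 3.92. The groups overlapped, and the log2 fold change was -0.45 (SE 0.18, n = 8 per breed, adjusted p = 0.615). LAMA4 ranged from 18.6 to 57.5 CPM in PUL LD with a median of 29.8, and from 22.2 to 100 in PL LD with a median of 48.4. In 3 of the 8 PL libraries it lay above every PUL library, with a log2 fold change of 0.74 (SE 0.31, adjusted p = 0.627). ITGBL1, a secreted protein with integrin-beta-like repeats, had medians of 0.716 CPM in PUL LD and 1.5 in PL LD and a log2 fold change of 0.93 (SE 0.43, adjusted p = 0.691). MMP14, the membrane-bound protease that activates MMP2, had medians of 6.48 and 11 CPM and a log2 fold change of 0.54 (SE 0.27).

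In S no member passed either, and again none of the 10687 genes tested did (0%). DESeq2 called 103 of these genes (0.964%) and no member. At an unadjusted p under 0.05 there were 8 of 59 tested members (13.6%, against 11.7% of all genes). All 8 had the higher estimate in PL, a direction that 5.38% of all genes took at that p. Of the 59, 45 (76.3%) had the higher estimate in PL against 52.6% of all genes, with a median log2 fold change of 0.29 against 0.02 over all genes. Without PL pig 8 these were 41 of 59 members and 0.26. Without PUL pigs 1 to 5, where 65 members passed the filter, they were 40 of 65 and 0.10. By class, 10 of 11 integrin alpha subunits, 7 of 9 ADAMTS genes, 5 of 7 MMPs and all 3 lysyl oxidases, all 3 lysyl hydroxylases and all 3 of NID2, HSPG2 and AGRN lay on the PL side, while laminin chains and integrin beta subunits were split 3 to 3.

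**Figure D2:**
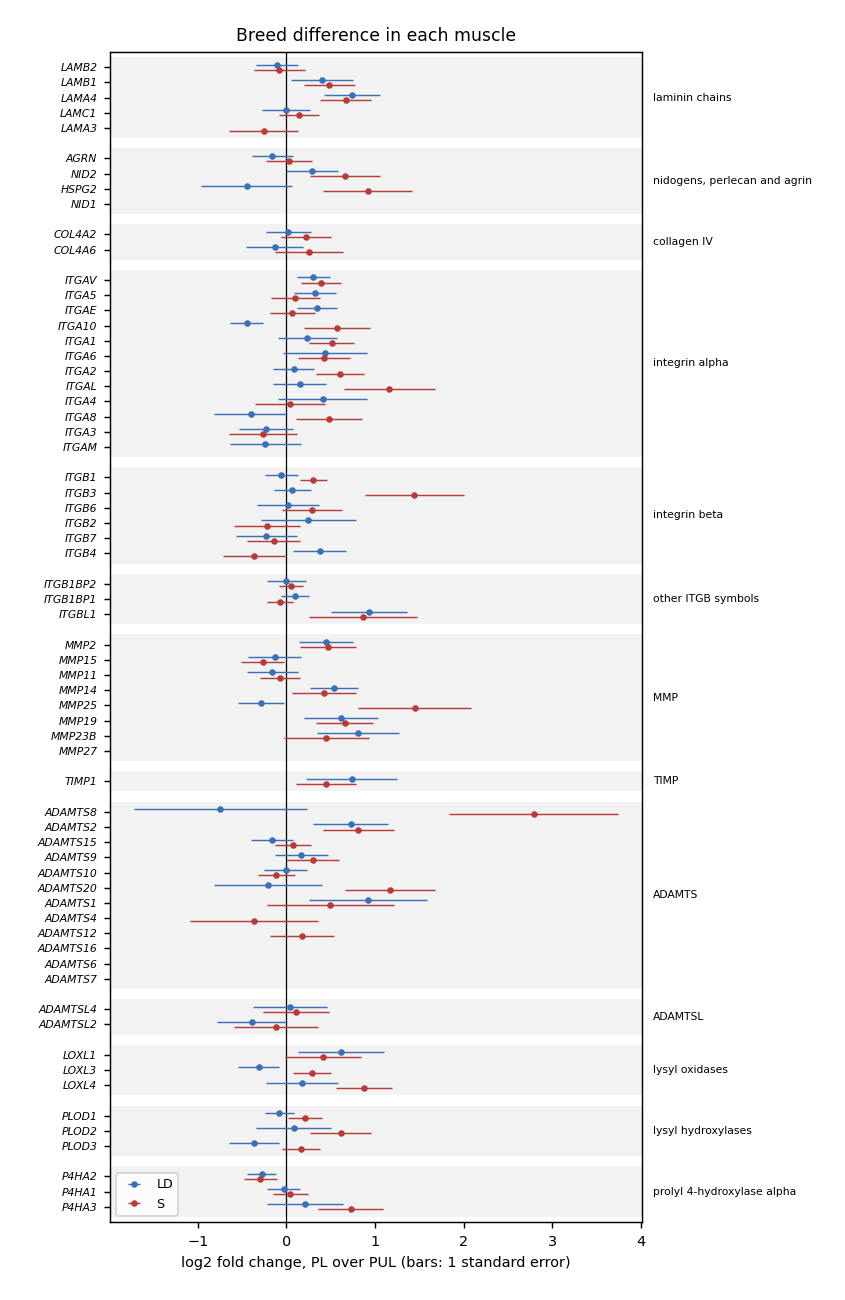
Log2 fold change of PL over PUL in LD (blue) and S (red) for the tested members, with bars of 1 approximate standard error (SE) and members grouped by class. In S 45 estimates lie to the right of 0, in LD 31, and the farthest point is ADAMTS8 in S at 2.79.

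LOXL4, an oxidase that crosslinks collagen, ranged from 0.547 to 1.90 CPM in PUL S with a median of 1.0, and from 0.706 to 3.04 in PL S with a median of 2.31. In 5 of 8 PL libraries it exceeded every PUL library, and the log2 fold change was 0.88 (SE 0.32, adjusted p = 0.324). LAMA4 ranged from 11.0 to 52.3 CPM in PUL S (median 40.4) and from 33.5 to 83.9 in PL S (median 56.4). Here too 5 of 8 PL libraries lay above every PUL library, and the log2 fold change was 0.67 (SE 0.29, adjusted p = 0.386). ADAMTS20, a secreted protease that cuts versican, had medians of 1.0 and 2.46 CPM and a log2 fold change of 1.17 (SE 0.51). ITGA2, a collagen-binding alpha subunit, had medians of 1.70 and 2.75 CPM and a log2 fold change of 0.60 (SE 0.27). For each of these 4 members the estimate stayed on the PL side whichever pig was left out. They were picked by an unadjusted p under 0.05 in this same comparison, so the kept sign is no separate support.

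For ITGB3, ITGAL and MMP25 the estimate in S rested on a single library, and for ADAMTS8 its size depended strongly on 1 library. ADAMTS8 had a log2 fold change of 2.79 (SE 0.95, adjusted p = 0.291), and 1.0 without PL pig 14. In 3 of 8 PL libraries ADAMTS8 lay above every PUL library. ITGB3, the beta subunit best known from platelets, had 314 CPM in S of PL pig 8, against 17.4 to 31.8 in the other PL S libraries and 14.5 to 34.5 in PUL S, and its log2 fold change of 1.44 became 0.15 without that pig. ITGAL, the alpha subunit of a leukocyte integrin, had 12.9 CPM there and no more than 3.30 in any other library, and its log2 fold change of 1.16 became 0.26. MMP25, a protease of leukocytes, had 59.3 CPM there and no more than 6.94 elsewhere, and its log2 fold change of 1.45 became -0.15. ITGA10 was also highest there, at 23.1 CPM against at most 7.67 elsewhere, and its log2 fold change in S, 0.57, became -0.04. The summed level of 5 of 7 macrophage and leukocyte markers in PL S was 11.5 to 20.8 CPM, against 5.71 to 19.8 in PUL S, and their part in these values was not tested.

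**Figure D3:**
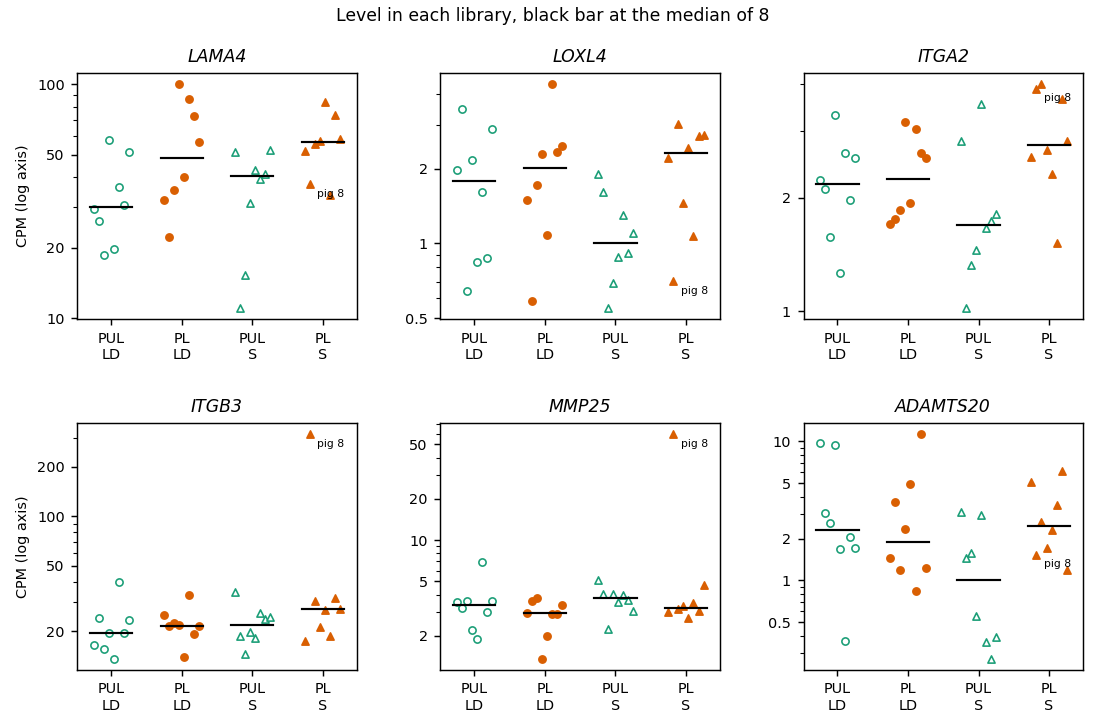
CPM (log axis) of LAMA4, LOXL4, ITGA2, ITGB3, MMP25 and ADAMTS20 in each library of the 4 groups, with a black bar at the median of 8 and PL pig 8 marked in PL S. ITGB3 at 314 CPM and MMP25 at 59.3 CPM in that library stand away from all others, whereas the PL S points of LAMA4 and LOXL4 overlap the PUL S points over part of their range.

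Markers of other cell types were measured beside these values. The fibroblast list, 5 of 8 genes with COL1A2 and COL3A1 among them, summed to a median of 484 CPM in PUL LD (251 to 2329), 1267 in PL LD (535 to 5447), 952 in PUL S (112 to 2152) and 1945 in PL S (1108 to 5410). The 4 fibroblast genes tested had median breed differences (PL over PUL, log2) of 1.35 for LD and 1.10 for S. All 4 had the higher estimate in PL in both muscles, 3 of them in LD and 2 in S at an unadjusted p under 0.05. That p was reached by 7.15% of all genes in LD and 11.7% in S. None of the 4 was called, nor was any gene by edgeR in these comparisons (0%). The red blood cell list (3 of 4 genes) had median breed differences of 1.32 in LD and 1.3 in S, with 2 and 1 genes at that p. The endothelial list (6 of 10 genes, without CDH5 and VWF) was closer between breeds, with 0.01 in LD and 0.28 in S and summed medians of 109 to 120 CPM in the 4 groups. No marker with a gene ID was at 0 in every library, and the part of these cells in the members' values was not tested.

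The design also allows S to be compared with LD within a pig. In PUL, no member passed the test of the paired fit, while 7 of 10771 genes did (0.065%). At an unadjusted p under 0.05 there were 6 of 57 tested members (10.5%, against 8.45% of all genes), 3 with the higher estimate in S (ITGA5, ITGB4 and LAMA3) and 3 with the lower (ADAMTS8, ADAMTS20 and LOXL4), directions that 4.92% and 3.53% of all genes took at that p. The median log2 fold change (S over LD) was -0.05, and 26 of 57 (45.6%) were above 0 against 50.5% of all genes. In PL, no member and none of 10680 genes passed (0%), and DESeq2 called 2 genes (0.0187%) and no member. At an unadjusted p under 0.05 there were 3 of 59 members, ITGA5, COL4A2 and LOXL3, a share of 5.08% against 1.35% of all genes. This count was 1 without PL pig 10 and 8 without PL pig 14. All 3 had the higher estimate in S, which 0.581% of all genes had at that p. Of the 59, 52 (88.1%) had the higher estimate in S against 50.5% of all genes, with a median log2 fold change of 0.19 against 0.00241 over all genes. Leaving out each PL pig in turn gave 44 to 53 such members and medians of 0.09 to 0.27.

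**Figure D4:**
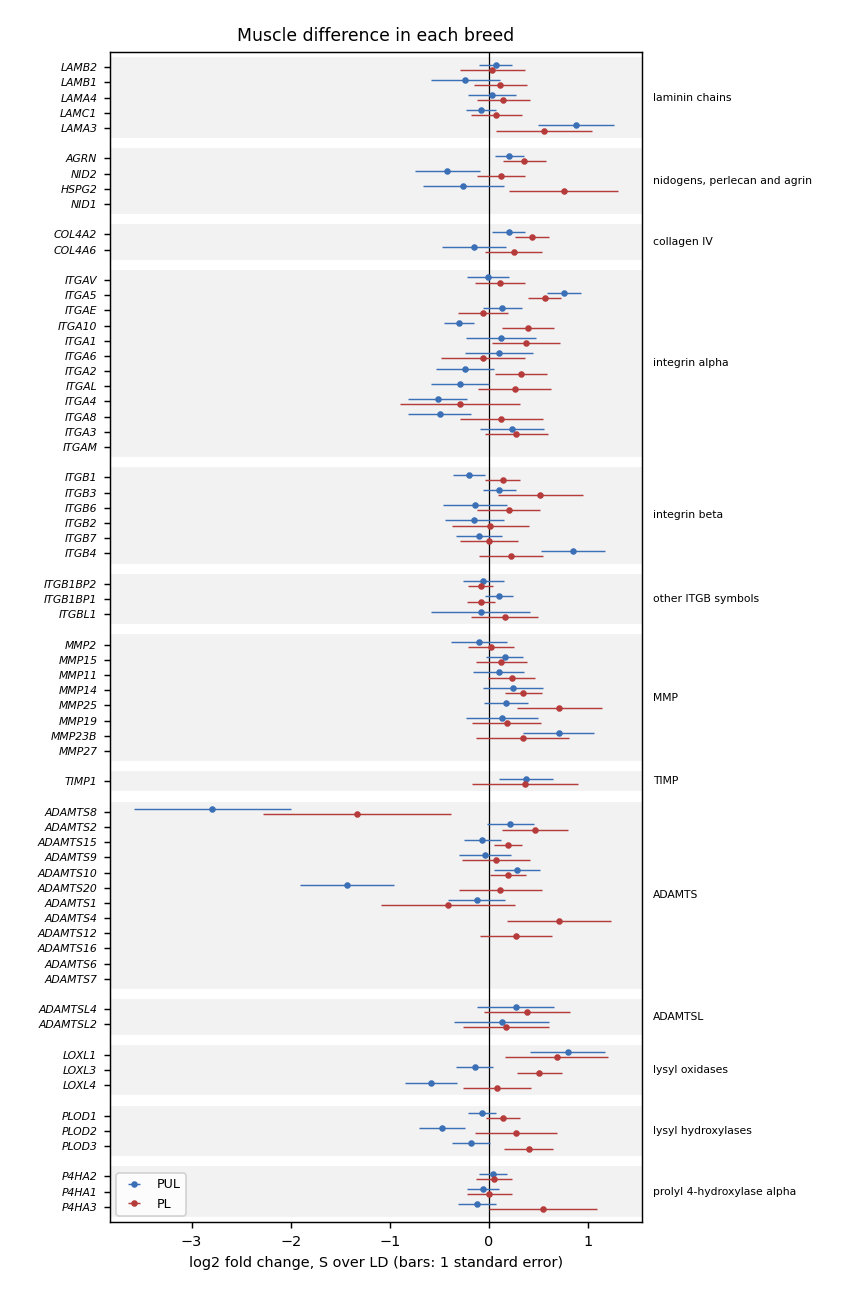
Log2 fold change of S over LD in PUL (blue) and PL (red) for the tested members, with bars of 1 approximate standard error (SE) and members grouped by class. More estimates lie to the right of 0 in PL than in PUL, and ITGA5 lies to the right in both.

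ITGA5 (ENSSSCG00000000293), the alpha subunit of the main fibronectin receptor, was the member with the smallest p in each breed. In PUL pigs 1, 2, 3, 4, 5, 13, 16 and 17 its LD libraries held 8.63, 10.3, 8.37, 8.46, 3.86, 6.94, 7.45 and 15.1 CPM, and the S libraries of the same pigs held 17.3, 10.7, 7.90, 18, 6.51, 16.8, 13.5 and 29.3 CPM. S was higher in 7 of 8 pigs, all but pig 3. The log2 fold change was 0.75 (SE 0.17, adjusted p = 0.215), and DESeq2 gave an adjusted p of 0.0118 and called it. In PL pigs 7, 8, 9, 10, 12, 14, 15 and 18 the LD libraries held 9.47, 9.95, 8.72, 7.89, 8.28, 17.4, 14.2 and 10 CPM, and the S libraries 20.4, 13.6, 15.8, 13.2, 9.28, 16.5, 26.7 and 12.4 CPM. S was again higher in 7 of 8 pigs, all but pig 14, with a log2 fold change of 0.56 (SE 0.16, adjusted p = 1).

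Fitted over both breeds together, with the pig as a block and all 16 pigs, ITGA5 rose in S. This fit was added with the values of each breed known. Its log2 fold change was 0.65 (SE 0.12, adjusted p = 0.0334), S was higher in 14 of 16 pigs, and ITGA5 was the only member among the 13 of 11563 genes called by edgeR (0.112%). At an unadjusted p under 0.05 there were 8 of 65 members, against 5.85% of all genes, and 44 members (67.7%) had the higher estimate in S against 46.4% of all genes. DESeq2 called 60 of 11563 genes, among them 2 of the 65 members, ITGA5 (adjusted p = 4.42e-05) and ADAMTS8. The estimate lay between 0.62 and 0.71 whichever pig was left out, but the call held in 6 of the 16 fits, those without PUL pig 2 or 3 or PL pig 8, 12, 14 or 18. In the other 10 the adjusted p was 0.0713 to 0.106. The call was also lost without the pig block (log2 fold change 0.68, adjusted p = 0.320), where 16 of 11563 genes were called. It was lost as well with at least 10 counts required in every library (0.66, 0.130) and without PUL pigs 1 to 5 (0.69, 0.628). Neither of those fits called any gene (0 of 8291 and 0 of 11947). The 4 slow fibre markers tested had a median log2 fold change (S over LD) of 0.54 in PUL and -0.19 in PL. The 3 fast fibre markers tested had medians of 0.26 in PUL and -0.09 in PL. No marker of either list reached an unadjusted p under 0.05 in either breed, and their part in the level of ITGA5 was not tested.

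ADAMTS8 (ENSSSCG00000015249), a protease of the ADAMTS family, had the opposite direction. It ranged from 0.296 to 139 CPM in PUL LD (median 8.63) and from 0.107 to 5.83 in PUL S (median 2.96). S was lower in 8 of 8 PUL pigs, which held for 0.91% of all genes, and the log2 fold change was -2.79 (SE 0.79, adjusted p = 0.346). DESeq2 called it in PUL, with an adjusted p of 0.0189, and called 112 of 10562 genes in all (1.06%), ITGA5 and ADAMTS8 being the members among them. In PL, S was lower in 5 of 8 pigs, with a log2 fold change of -1.33 (SE 0.95), and over both breeds the value was -2.02 (SE 0.68, adjusted p = 0.546) with edgeR and -2.07 (SE 0.54, adjusted p = 0.0288) with DESeq2.

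**Figure D5:**
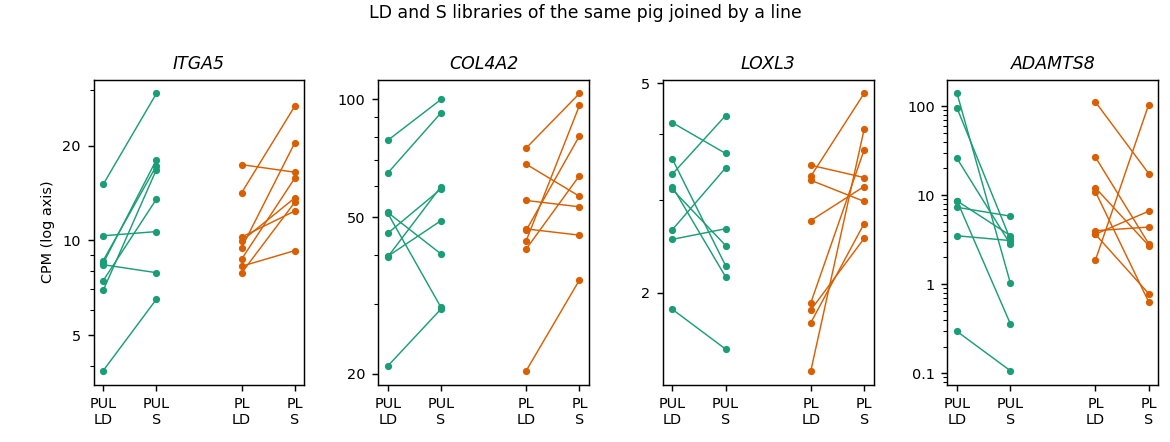
CPM (log axis) of ITGA5, COL4A2, LOXL3 and ADAMTS8 in LD and S, with both libraries of a pig joined by a line. ITGA5 is higher in S in 7 of 8 PUL and 7 of 8 PL pigs, and ADAMTS8 is lower in S in 8 of 8 PUL and 5 of 8 PL pigs.

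Of the remaining members at an unadjusted p under 0.05, COL4A2 had medians of 46.6 CPM in PL LD and 60.2 in PL S and a log2 fold change of 0.43 (SE 0.17), and in PUL 48.4 and 54.1 CPM and 0.20 (SE 0.16). LOXL3, a lysyl oxidase, had 0.51 (SE 0.22) in PL and -0.14 (SE 0.19) in PUL. ITGB4, the beta subunit that pairs with the laminin receptor subunit ITGA6, had 0.85 (SE 0.32) in PUL, where S was higher in 7 of 8 pigs, and 0.22 (SE 0.32) in PL. LAMA3, the alpha chain of epithelial laminin, had 0.88 (SE 0.39) in PUL and 0.56 (SE 0.49) in PL. ADAMTS20 had -1.43 (SE 0.47) in PUL and 0.12 (SE 0.42) in PL, and LOXL4 had -0.58 (SE 0.26) and 0.08 (SE 0.34). All 6 of these missed the adjusted threshold in both breeds.

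Whether the muscle difference itself differed between the breeds was tested as an interaction over the 32 libraries. No member and none of 11563 genes passed (0%), and DESeq2 called 1 gene (0.00865%), not a member. At an unadjusted p under 0.05 there were 3 of 65 members (4.62%, against 2.54% of all genes). LOXL3 had an interaction of 0.66, ITGA10 of 0.71 (0.48 without PL pig 8) and ADAMTS20 of 1.55 on the log2 scale, each positive, meaning a larger S over LD value in PL, as for 0.934% of all genes at that p. PLOD3, a lysyl hydroxylase, followed with 0.58 and ADAMTS6 with 1.14. By class, all 4 of NID1, NID2, HSPG2 and AGRN and all 3 lysyl hydroxylases had positive estimates, and over all members 46 of 65 (70.8%) did, against 51.8% of all genes. This count lay between 38 and 51 whichever pig was left out.

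The laminin chains LAMB1 and LAMC1, partners in the same trimers, were compared across the 8 pigs of each group on the log2 scale. Pearson's r was -0.60 in PUL LD, 0.30 in PL LD, 0.62 in PUL S and 0.36 in PL S, with Spearman's rho of -0.52, 0.29, 0.57 and 0.40. The exact two-sided permutation p adjusted over the 4 groups was 0.248, 0.464, 0.248 and 0.464 for r, and 0.393, 0.501, 0.393 and 0.436 for rho. Without the 2 pigs farthest from the median LAMB1 level, r was -0.65, 0.14, 0.30 and 0.02.

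Genes that work beside these members were followed as 4 lists. The dystroglycan and sarcoglycan complex, the other laminin receptor of muscle, had 13 of 20 genes tested in S. Its median log2 fold change between breeds (PL over PUL) was 0.08. It had 1 gene at an unadjusted p under 0.05 (a p reached by 11.7% of all genes), with the higher estimate in PUL. The cytoplasmic side of integrin adhesion, talin and vinculin among it, had 11 of 17 genes tested in S, none at that p, and a median of 0.08. Other basement membrane and cell surface matrix genes, such as collagen VI and fibronectin, had 13 of 16 tested and a median of 0.35 between breeds in S. The 1 gene at that p had the higher estimate in PUL, against the sign of this median. Other matrix processing enzymes and inhibitors had 15 of 24 tested, 2 at that p with the higher estimate in PL, and a median of 0.08. In LD, where 7.15% of all genes reached that p, it was reached by 3 of 13, 1 of 11, 1 of 12 and 0 of 15 genes in the same order. Of the 3 dystroglycan complex genes, 1 was higher in PL and 2 in PUL, while the single genes of the next lists were higher in PL. The medians were 0.08, -0.07, -0.03 and 0.13. No gene of the 4 lists was called in any of the 5 comparisons by edgeR. Over all genes edgeR called 7 of 10771 (0.065%) in the muscle contrast of PUL and 0% in the other comparisons.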

How the data were processed

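The authors aligned single reads with Bowtie2 to the Sscrofa10.2 genome and deposited gene counts estimated by RSEM, per the labels and the study's methods. These deposited expected counts, which need not be whole because RSEM shares ambiguous reads between genes, were rounded to whole numbers. A second deposited table, of isoforms, was not used because its entries are not paired with genes. Pig Ensembl IDs were given symbols from a gene name table. The available annotation, Sscrofa11.1, is of another build, so no coordinates or sequences are given. The members and the lists of pathway and marker genes were chosen with earlier results of these data known.

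Each comparison was fitted with the edgeR 4.0.16 quasi-likelihood test in R 4.3.3 (limma 3.58.1), with TMM factors, the filterByExpr filter and Benjamini-Hochberg adjustment over all genes tested. The breeds were compared in each muscle with 8 libraries per breed, the muscles within each breed with the pig as a block, and the interaction over 32 libraries with the pig as a block. A gene was called at an adjusted p at or under 0.05 and a fold change of at least 1.3. For edgeR, SE is an approximate standard error, the absolute log2 fold change divided by the square root of the test's F statistic. For DESeq2, SE is the standard error of the log2 fold change given by that program. CPM use the TMM factors of the 32 libraries, and correlations used log2(CPM + 0.5). LD and S were paired by the pig number, which the labels give alike in both muscles. Deviations of a pig's LD and S libraries from their group means correlated at 0.04 to 0.69 in PUL and -0.52 to 0.64 in PL, and were highest for the pig's own number in 3 of 8 PUL and 1 of 8 PL pigs, so the pairing rests on the labels alone. No pair of libraries of the same group agreed within sampling noise (lowest chi-square per degree of freedom 35.5 over 112 pairs). Pairs of libraries from different groups were not compared in this way.

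Named members were the 5 with the smallest p in each comparison, the member of each class with the highest mean CPM (not per length), and the LAMB1 and LAMC1 pair. Others were named after their values were seen. One tested member enters the counts but is not reported here by its values, and the plots leave it out. Of the partner chains planned, COL4A1 and ITGA7 matched no gene ID. Alternatives were DESeq2 1.42.0, RLE factors, the edgeR exact test, tests over unfiltered genes or over those with 10 or more counts in each library, calls by adjusted p alone, fits with and without blocks, joint fits, and leaving out each pig or PUL pigs 1 to 5. The fit of both breeds together and the fits without PL pigs 8 and 14 or without PUL pig 5 and PL pig 8 were added after seeing the data. The scripts were tested on simulated data. Libraries of this kit do not keep strand, so reads of a gene and an antisense partner cannot be told apart. Per the labels 16 libraries shared a lane, with 4 technical replicates, and the pool of each library was not analysed here. Counting precision follows from the depth of 8821259 to 24761846 counts per library. One library of each muscle was taken per pig, so the spread is that between pigs.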

Additional observations from a re-analysis of the deposited data

Results flagged for a closer look

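In 12 of 128 tests of a named member in a group of 8 pigs (chance flags about 5% of such groups, but some members were named for these values, so the shares are not compared), the lowest or highest library was separated from the rest by more than Dixon's critical value for 8 values on the log2 scale. Of the 12, 4 were the highest library of PL S, each time pig 8. These were ITGB3 at 314 CPM with the next library at 31.8, MMP25 at 59.3 with the next at 4.71, ITGA10 at 23.1 with the next at 6.12, and ITGAL at 12.9 with the next at 2.15. In the same library 261 of 11563 genes (2.26%) exceeded the second highest library more than 2 times.

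Another 4 were also at the high end. LOXL1 stood at 14.6 CPM in LD of PL pig 14 (next 4.49), PLOD1 at 91.2 in S of PUL pig 1 (next 65.1), MMP25 at 6.94 in LD of PUL pig 13 (next 3.58) and ADAMTS6 at 0.717 in S of PUL pig 5 (next 0.391). The remaining 4 were at the low end. ITGAV stood at 10.0 CPM in S of PL pig 14 (next 21.9), COL4A2 at 20.3 in LD of PL pig 12 (next 41.6), AGRN at 3.06 in S of PL pig 12 (next 9.88) and ADAMTSL4 at 0.215 in LD of PUL pig 3 (next 1.46). Other groups of the same 32 members had no library past the critical value.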

How the results depend on the processing

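The count of members called was 0 in all 5 comparisons. It remained 0 under every alternative run except DESeq2 in the muscle contrast of PUL, which called 2, ITGA5 at 0.75 and ADAMTS8 at -2.75. Over all genes edgeR called 0.065% in that contrast and 0% in the others, so a count of 0 is not particular to the members. DESeq2 called 0.176% of all genes in LD and 0.964% in S between breeds. Between muscles it called 1.06% in PUL and 0.0187% in PL, and 0.00865% for the interaction. The count of members called by edgeR was 0 to 0 whichever pig was left out in each of the 5 comparisons. The replicate number as a block between breeds, where it marks no shared animal, gave 0 called members in LD and in S, and deviations of same-numbered pigs correlated at -0.30 to 0.55 in LD and -0.31 to 0.20 in S. Removing the pig as a block between muscles also gave 0, and turned ADAMTS20 in PL from 0.12 to -0.14. It ended the call of ITGA5 over both breeds, as given above.

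Direction turned for some members, none of which was called, and the cause was not tested. In S between breeds, MMP25 (1.45) became -0.17 under DESeq2, -0.15 without PL pig 8, -0.17 without PL pigs 8 and 14 and -0.16 without PUL pig 5 and PL pig 8. ITGA10 (0.57) became -0.037, -0.14 and -0.094 in the last 3 of these. Without PUL pigs 1 to 5, ITGBL1 (0.87) became -0.12 and MMP14 (0.42) became -0.42 in S, ADAMTS8 (-0.74) became 0.80 in LD, and LOXL3 in PUL (-0.14) became 0.12. Leaving out each pig in turn gave -2.03 (without PL pig 8) to 0.022 (without PUL pig 1) for ADAMTS8 and -0.098 (without PL pig 14) to 0.38 for LOXL4 (0.17) in LD, -0.15 to 1.60 for MMP25 and -0.037 to 0.68 for ITGA10 in S, and -0.14 to 0.31 for ADAMTS20 in PL, which was below 0 without pig 7, 9 or 14. The 8 members of S at an unadjusted p under 0.05 became 4 to 13 when a pig was left out, 4 of them without PUL pig 3 and 13 without PUL pig 5. The 3 of LD became 1 (without PUL pig 2) to 8 (without PUL pig 17), and 6 under no filter and also when blocked by replicate number. The 6 of the muscle contrast in PUL became 3 (without pig 13) to 9 (without pig 5), 3 with at least 10 counts in every library and 10 without pigs 1 to 5. The 3 of the muscle contrast in PL became 1 (without pig 10) to 8 (without pig 14), and the 3 of the interaction 1 (without PL pig 9) to 4 (without PUL pig 5). With 8 pigs a breed and a median SE of 0.30 in LD and 0.32 in S for tested members, small fold changes were not detectable. Larger ones were not called by edgeR either, such as ADAMTS20 at 1.17 (SE 0.51) in S. ADAMTS8 in S, at 2.79 (SE 0.95), was not called, but it was 1.0 without PL pig 14 and 0.94 with DESeq2. A member not called may thus still differ between breeds.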

Other observations

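Members that passed no filter held few reads. MMP9, the gelatinase of leukocytes, reached 2.20 CPM and was detected in 30 of 32 libraries. LAMB3, the beta chain of epithelial laminin, was detected in 32 libraries with at most 1.83 CPM, and ITGA11, a collagen-binding alpha subunit, in 17 with at most 2.00 CPM. LOX itself, the founding lysyl oxidase, was detected in 27 libraries with at most 1.18 CPM. The collagenases MMP1, MMP8 and MMP13 were detected in 1, 1 and 2 libraries, with at most 0.0774 CPM.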
